A study of Mus musculus with 8 samples.

Results

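The 40 genes described here are linked to ATF4, the transcription factor of the amino acid stress response, and include 16 of the cytosolic aminoacyl-tRNA synthetases. They were taken by symbol, and each gene was read by the probe set that carries that symbol alone, or by the one with the highest mean where there were several. Of the 40 genes, 38 were measured among 19938 genes in all, and Aars and Pycr1 were not analysed here. The platform lists Mars under its current symbol, Mars1. By role the measured genes were 6 transcription factors, 8 stress regulators and secreted or surface proteins, 9 enzymes of amino acid synthesis and 15 aminoacyl-tRNA synthetases.

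Messenger RNA was measured on 8 Affymetrix arrays of mouse T helper cells. Th1 cells are the interferon-gamma producing subset and Th17 cells the interleukin-17 producing subset. The wild-type cells came from Tet2(f/f) mice, whose Tet2 gene carries loxP sites, and the Tet2-deficient cells from CD2(Cre)Tet2(f/f) mice. All 4 groups thus carry the floxed allele, and only the deficient groups carry Cre, so Cre itself and the loss of Tet2 cannot be told apart. The CD2-driven Cre acts in the lymphoid lineage from before the T helper cells form. Each group held 2 arrays, called biological replicates by the titles, which do not give the age or number of mice or the days of culture. Tet2 converts 5-methylcytosine to oxidized forms in DNA, and the design compares cells with and without it in each subset.

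ATF4 is made when kinases that sense missing amino acids, misfolded protein or viral RNA phosphorylate the translation factor eIF2. General translation then slows while the Atf4 message is translated better, so the amount of Atf4 mRNA is a weak guide to the amount of ATF4 protein. ATF4 switches on enzymes that make asparagine, serine, glycine and proline, amino acid transporters and many of the synthetases that load amino acids onto tRNA. Activated T cells are known to use this program while they grow.

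The median log2 signal of all genes lay between 6.53 and 6.61 on every array. Arrays of one group correlated at 0.990 to 0.994 over genes, and genes are no independent replicates. The T cell markers Cd3e and Cd4 had high signals on every array. Ifng and Tbx21 were high on the Th1 arrays, and Il17a, Il17f and Il23r on the Th17 arrays. Other Th1 markers separated the subsets less. Il12rb2 read 11.74 to 11.95 on the Th1 and 10.13 to 10.55 on the Th17 arrays. Cxcr3 overlapped (7.61 to 7.85 and 7.41 to 7.69), and Il18r1 went the other way (7.75 to 8.45 and 8.46 to 8.99). Of 23 markers of other cell types, 19 to 21 lay under the array's median. In Th1 cells the Tet2 signal read 8.14 and 8.02 with Tet2 and 8.12 and 7.98 without, and in Th17 cells 8.51 and 8.49 against 8.34 and 8.39. It does not check the deletion, because the removed exons are not named by the labels and the probes may lie outside them. Female RNA, estimated from the linear Xist signal with Tet2-deficient Th17 replicate 2 set at 100%, made up 0.187% and 42.9% of the wild-type Th17 arrays, 14.7% of Tet2-deficient Th17 replicate 1, and -0.130% to 0.105% of the Th1 arrays.

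The element through which ATF4 acts with C/EBP proteins has the core TGATGNAA, where N is any base. In the 250 bases before a start given by RefSeq (assembly GRCm38.p6), searched on both strands, this core was present in 10 of 34 windows of the set, or 29.4%, against 3.45% of 32851 windows of all genes. A window was given for 31 of the 40 genes, and a match was found in 10 of them. Cars, Cth, Eif4ebp1, Hars, Lars, Nars, Rars, Vars and Wars had no window, so whether they carry the core is not known here. The set holds genes named as ATF4 targets in the literature, so this share is a description. The stretches around the match in 8 measured genes are shown here, because they mark which of the searched genes described below carry the core near their start. Each runs 5′ to 3′ on the gene's strand and ends, at the latest, at the last base before the RefSeq start. Capitals mark the match. The stretch of Vldlr lies inside the annotated span of the gene, which begins at base 27216480, so its window belongs to a later start, whereas the other 7 lie before the gene. TTGCATCA and TTTCATCA are the core read on the opposite strand.
Asns (chr6:7693210-7693258, minus strand): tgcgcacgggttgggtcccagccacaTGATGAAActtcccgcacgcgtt
Atf3 (chr1:191183410-191183469, minus strand): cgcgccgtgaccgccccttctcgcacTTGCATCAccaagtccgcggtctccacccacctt
Chac1 (chr2:119351023-119351082, plus strand): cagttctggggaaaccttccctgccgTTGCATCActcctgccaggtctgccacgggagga
Fgf21 (chr7:45615596-45615655, minus strand): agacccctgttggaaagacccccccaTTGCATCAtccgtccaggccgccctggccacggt
Gars (chr6:55037945-55038000, plus strand): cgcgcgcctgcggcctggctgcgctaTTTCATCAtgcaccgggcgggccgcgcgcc
Nupr1 (chr7:126625547-126625606, minus strand): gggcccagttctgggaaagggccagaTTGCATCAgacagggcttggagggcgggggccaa
Tars (chr15:11399659-11399699, minus strand): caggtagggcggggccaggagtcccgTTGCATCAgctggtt
Vldlr (chr19:27216794-27216853, plus strand): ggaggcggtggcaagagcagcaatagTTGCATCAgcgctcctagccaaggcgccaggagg
The second element searched, TGACGTCA, the full cyclic AMP response element, was found in 1 of the 34 windows, that of Ppp1r15a, against 1.55% of all windows. The 2 cores do not overlap in these windows. Matches are letters in a sequence and no measurement of binding.

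**Figure D1:**
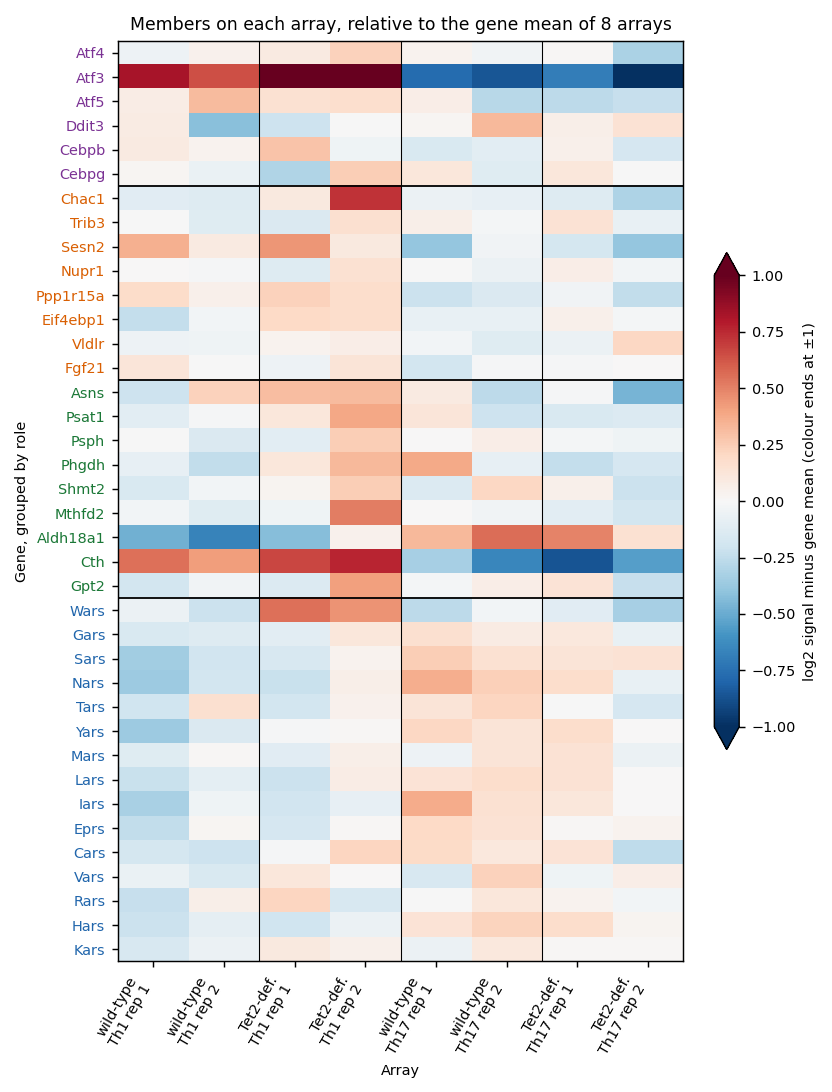
Heat map of the 38 measured genes (rows, grouped by role and coloured by role) on the 8 arrays (columns), as log2 signal minus the gene's mean over the 8 arrays; colours end at a difference of 1 in either direction. Atf3 and Cth were higher on every Th1 array than on any Th17 array, Aldh18a1 was lower on every Th1 array, and Chac1 stood highest on Tet2-deficient Th1 replicate 2.

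In Th1 cells, 35 of the 38 genes lay above 0 in the comparison of Tet2-deficient with wild-type cells, among them all 9 enzymes of amino acid synthesis and 14 of the 15 synthetases, but none passed the test. The median log2 fold change was 0.16 over the 38 genes, 0.30 over the synthesis enzymes, 0.15 over the synthetases, 0.076 over the stress regulators and 0.061 over the transcription factors. Over all genes the median was 0.013, with 54.1% above 0, and over the genes at or above the median level it was 0.026, with 57.4% above 0. Limma called 0 of the 38 genes at an adjusted p under 0.05, where 0.00502% of all genes were called. An unadjusted p under 0.05 was reached upwards by 5 of the 38, against 3.2% of all genes, and downwards by 0.

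Wars, the tryptophanyl-tRNA synthetase gene, which is also known to be induced by interferon-gamma, had the largest difference among the 38 genes. The probe set of Wars (10402585, gene ID 22375, chromosome 12) read 9.50 and 9.34 on the wild-type and 10.11 and 10.003 on the Tet2-deficient Th1 arrays, a log2 fold change of 0.64 ± 0.14 (SE, n = 2 and 2, adjusted p = 0.598, limma). Both deficient arrays lay above both wild-type arrays. The only gene of all called in this comparison was Ifng, the interferon-gamma gene, which fell in Tet2-deficient Th1 cells (-1.39 ± 0.14, adjusted p = 0.00438), and its part in the values of Wars was not tested. Chac1 encodes an enzyme that degrades glutathione. It had 6.92 and 6.91 in wild-type against 7.13 and 7.75 in Tet2-deficient cells, a log2 fold change of 0.53 ± 0.17 (adjusted p = 0.797), and replicate 2 accounts for most of that difference. Without Tet2-deficient Th1 replicate 2 the log2 fold change of Chac1 was 0.22.

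Atf3, a transcription factor induced early in stress, had 9.50 and 9.33 against 9.77 and 9.85, a log2 fold change of 0.40 ± 0.19 (adjusted p = 0.829). Phgdh, the first enzyme of serine synthesis, had 8.13 and 7.97 against 8.33 and 8.54 (0.38 ± 0.15, adjusted p = 0.804). The groups did not overlap for either gene. Aldh18a1, which makes the precursor of proline, had 8.73 and 8.55 against 8.79 and 9.26 (0.38 ± 0.17, adjusted p = 0.821), so that deficient replicate 1 stood close to wild-type replicate 1, and it was 0.15 without deficient replicate 2. Eif4ebp1, a repressor of cap-dependent translation, had 8.72 and 8.93 against 9.16 and 9.14 (0.32 ± 0.12, adjusted p = 0.797).

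Atf4 itself had 8.88 and 8.98 on the wild-type Th1 arrays against 9.03 and 9.16 on the deficient ones, a log2 fold change of 0.17 ± 0.13. Asns, asparagine synthetase, had 10.51 and 10.95 against 11.03 and 11.04 (0.30 ± 0.19), and the wild-type arrays lay further apart than the group means. Without wild-type Th1 replicate 1 it was 0.084, and Atf4 was 0.096 without deficient replicate 2. Ddit3, which encodes the stress factor CHOP, had 7.68 and 7.18 against 7.39 and 7.60 (0.065 ± 0.17). Trib3, a pseudokinase that restrains ATF4, had 7.04 and 6.92 against 6.90 and 7.21 (0.071 ± 0.13). The groups overlapped for Ddit3 and Trib3.

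Of the 38 genes, 18 had both Tet2-deficient Th1 arrays above both wild-type arrays and 0 had both below, where 19.6% of all genes, and 21.8% of those at or above the median level, did so upwards and 13.7% of all genes downwards. Those 18 included 6 of the 9 synthesis enzymes and 7 of the 15 synthetases. The 3 genes below 0 were Tars (-0.052), Atf5 (-0.035) and Fgf21 (-0.023). Of the 8 measured genes with the core near their start, 6 lay above 0, with a median of 0.12, against 20 of 21 genes with a window and no match, with a median of 0.14.

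The 2 deficient Th1 arrays differed in how far they stood from the wild-type mean. On replicate 1, 24 of the 38 genes lay above the wild-type Th1 mean, with a median difference of 0.10, and on replicate 2 34 did, with a median of 0.24. Of all genes 56.0% and 50.5% lay above on these arrays, and of those at or above the median level 59.3% and 53.1%, so that the count on replicate 1 (63.2%) was near the share of all genes. For the synthesis enzymes these medians were 0.15 and 0.44. The median of the set was 0.24 without Tet2-deficient Th1 replicate 1 and 0.10 without replicate 2.

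**Figure D2:**
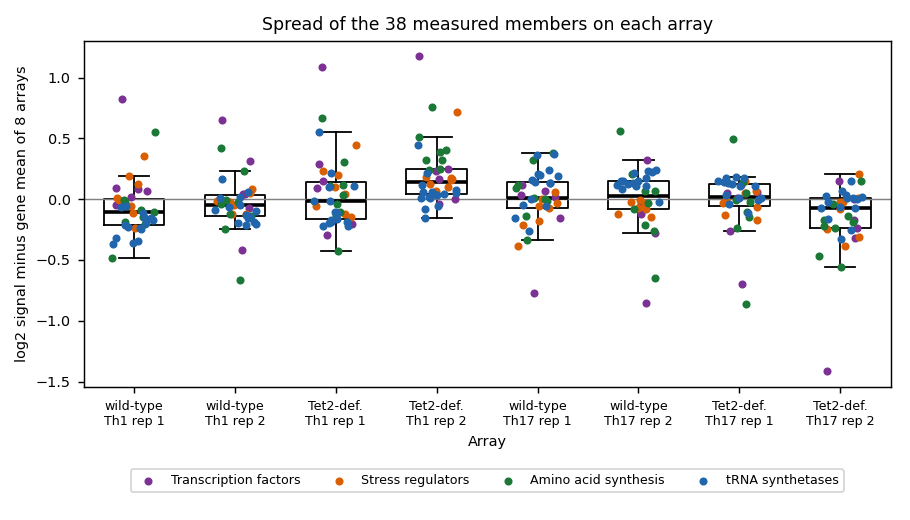
Log2 signal of each of the 38 genes minus the gene's mean over the 8 arrays, by array; each point is a gene coloured by role, the box spans the quartiles with the median as a thick line, and whiskers reach 1.5 times the box at most. The median was lowest on wild-type Th1 replicate 1 (-0.11, against -0.082 for all genes at or above the median level) and highest on Tet2-deficient Th1 replicate 2 (0.14), and among the Th17 arrays it was lowest on Tet2-deficient replicate 2 (-0.072).

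In Th17 cells, 29 of the 38 genes lay below 0 in Tet2-deficient against wild-type cells, and again none passed. All 9 synthesis enzymes and 14 of the 15 synthetases were below 0, while 6 of the 8 stress regulators were above it. The median log2 fold change was -0.077 over the 38 genes, -0.12 over the synthesis enzymes, -0.079 over the synthetases, 0.046 over the stress regulators and -0.10 over the transcription factors, against 0.013 over all genes, of which 45.6% were below 0. Limma called 0 of the 38, and 0% of all genes, and at an unadjusted p under 0.05 it found 1 of the 38 lower, against 1.53% of all genes.

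That gene was Phgdh, with 8.59 and 8.13 on the wild-type and 7.97 and 8.04 on the Tet2-deficient arrays, a log2 fold change of -0.35 ± 0.15 (SE, n = 2 and 2, adjusted p = 1, limma). Wild-type replicate 1 stood above the other 3 arrays by more than they differed, and without it the value was -0.12. Tars, the threonyl-tRNA synthetase gene, had 8.56 and 8.64 against 8.42 and 8.26 (-0.26 ± 0.14). Nars, the asparaginyl-tRNA synthetase gene, had 10.57 and 10.45 against 10.39 and 10.14 (-0.25 ± 0.14). Groups did not overlap for these 3 genes, and Nars was at -0.12 without deficient replicate 2.

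Atf3 had 7.91 and 7.83 against 7.99 and 7.27 (-0.24 ± 0.19), and its difference came from Tet2-deficient replicate 2 alone. Cth, which makes cysteine from cystathionine, had 7.28 and 6.96 against 6.74 and 7.06 (-0.22 ± 0.14). Cars, the cysteinyl-tRNA synthetase gene, had 8.67 and 8.58 against 8.61 and 8.22 (-0.21 ± 0.14). The groups overlapped for all 3. Cars was at -0.015 without deficient replicate 2, and Cth at -0.058 without wild-type replicate 1 and -0.062 without deficient replicate 1. Atf4 (8.97 and 8.90 against 8.94 and 8.62), Asns (10.81 and 10.46 against 10.71 and 10.25) and Ddit3 (7.61 and 7.92 against 7.66 and 7.74) overlapped as well. So did Trib3 (7.11 and 7.03 against 7.19 and 6.97) and Wars (9.29 and 9.53 against 9.44 and 9.22), whereas Chac1 had 6.97 and 6.95 against 6.90 and 6.72 (-0.15 ± 0.17).

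Both deficient arrays lay below both wild-type arrays for 9 of the 38 genes, where 14.1% of all genes did so, and above for 2, where 18.8% did. Tet2-deficient Th17 replicate 1 had 18 of the 38 genes above the wild-type mean (median difference -0.0059), and replicate 2, whose RNA was the most female, had 6 (median -0.14), where 56.2% and 51.3% of all genes lay above. The median of the set was -0.0059 without Tet2-deficient Th17 replicate 2, -0.14 without its replicate 1 and -0.048 without wild-type Th17 replicate 2. When the female share was a covariate, the log2 fold change was 0.014 for Atf3 and 0.059 for Asns, so that both changed sign, and the median of the set was -0.043. The summed signal of the 23 markers of other cells was also higher in deficient (2456 and 2223) than in wild-type Th17 cells (1642 and 1818), and without Ly6g it was 1118 and 1100 against 1119 and 1080. The part of these markers and of the female share in the values was not tested beyond this.

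**Figure D3:**
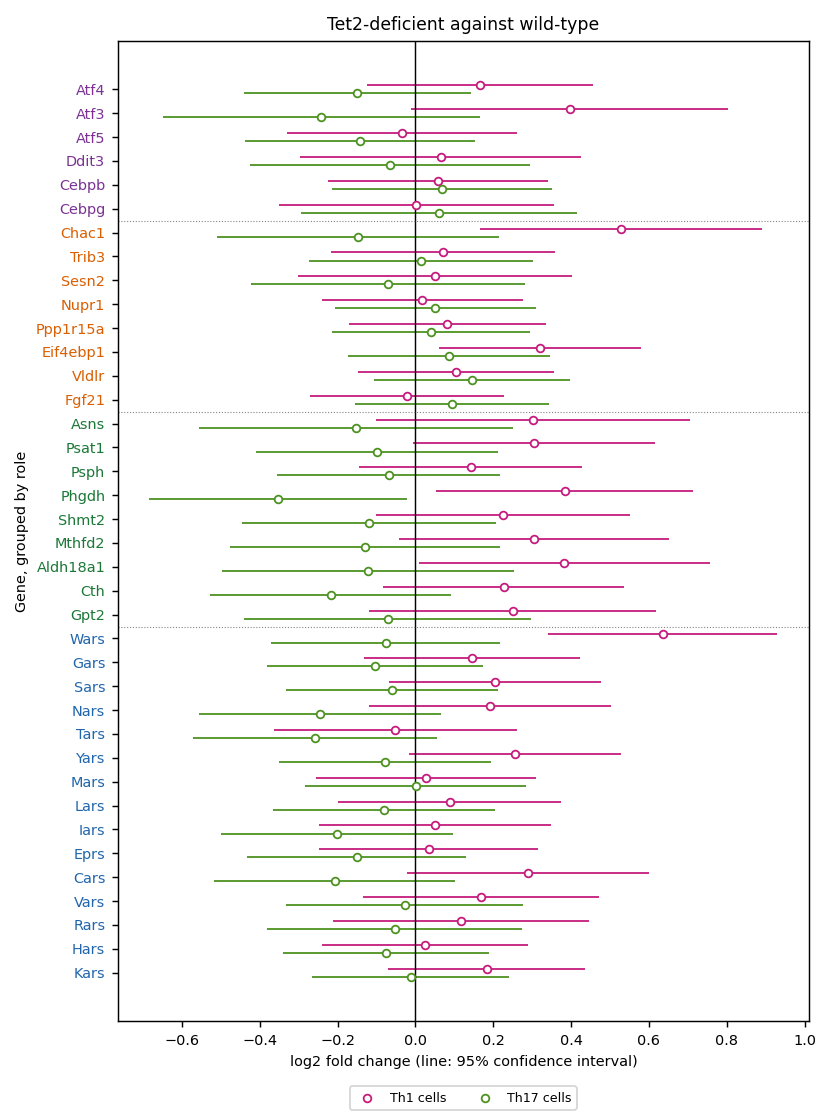
Log2 fold change of Tet2-deficient against wild-type cells for each of the 38 genes in Th1 cells (pink) and Th17 cells (green), with 95% confidence intervals from limma and 2 arrays in each group; open points were not called. In Th1 cells 35 of 38 points lie above 0, and in Th17 cells 29 of 38 lie below 0.

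The test of the difference between these effects called none of the genes. The Th17 effect minus the Th1 effect was below 0 for 33 of the 38 genes, among them all 9 synthesis enzymes and all 15 synthetases, with a median of -0.22, where the median over all genes was -4.775e-05 and 50% were below 0. Limma called 0 of the 38 (0% of all genes), while 6 were lower at an unadjusted p under 0.05, against 1.9% of all genes. They were Phgdh (-0.74 ± 0.22), Wars (-0.71 ± 0.19), Chac1 (-0.68 ± 0.24), Atf3 (-0.64 ± 0.26), Cars (-0.50 ± 0.20) and Cth (-0.44 ± 0.20), each with an adjusted p of 0.999. Aldh18a1 had -0.50 ± 0.24 and Asns -0.46 ± 0.26. Single arrays carried much of several of these values. Without Tet2-deficient Th1 replicate 2 Chac1 was at -0.36 and Aldh18a1 at -0.27. Without Tet2-deficient Th17 replicate 2 Atf3 was at -0.28, Cars at -0.30, Asns at -0.23 and Atf4 at -0.15. Wars stayed between -0.83 and -0.59 with any one array left out, and Phgdh between -0.96 and -0.51. The confidence interval of Wars ran from -1.13 to -0.30 and that of Atf4, at -0.31, from -0.73 to 0.10. The set's median difference was -0.18 without Tet2-deficient Th1 replicate 2 and -0.20 without Tet2-deficient Th17 replicate 2. With the female share as a covariate Atf3 was at -0.38, Asns at -0.24, Atf4 at -0.19 and Chac1 at -0.61. Ddit3 moved further from 0, from -0.13 to -0.21, and the set's median was -0.21.

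Between the subsets of wild-type cells, Atf3 and Cth fell and Aldh18a1, Nars and Sars rose in Th17 against Th1 cells. Limma called 3 of the 38 genes higher, or 7.89%, where 4.97% of all genes were called higher, and 2 lower, or 5.26%, where 3.44% were. The summed signal of the markers of other cells without Ly6g was 1368 to 1421 on the Th1 arrays of both genotypes. On the Th17 arrays it was 1080 to 1119, and its part in the subset comparisons was not tested. The marker in this sum that differed most was Eomes, with 8.18 to 8.26 on the Th1 and 6.66 to 7.03 on the Th17 arrays. Ncr1, Klrb1c and Klra8, like Eomes listed for natural killer cells, lay between 3.90 and 4.93 on every array. The shares of calls were near those of all genes, so the counts of calls do not set the genes apart as a group.

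Atf3 (chromosome 1, 191170296 to 191183333 in GRCm38) fell 2.93-fold, with 9.50 and 9.33 on the wild-type Th1 and 7.91 and 7.83 on the wild-type Th17 arrays (log2 fold change -1.55 ± 0.19, SE, n = 2 and 2, adjusted p = 0.000273, limma). Cth (chromosome 3) fell 1.97-fold, from 8.16 and 8.03 to 7.28 and 6.96 (-0.98 ± 0.14, adjusted p = 0.00109). Both genes lay far outside the spread of their replicates. Aldh18a1 (chromosome 19) rose 2.03-fold, from 8.73 and 8.55 to 9.54 and 9.78 (1.02 ± 0.17, adjusted p = 0.00321), a call that ended when all probe sets were tested (adjusted p = 0.0599). Cth and Aldh18a1 thus moved in opposite directions although both belong to amino acid synthesis.

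Nars rose from 9.85 and 10.03 to 10.57 and 10.45 (0.57 ± 0.14, adjusted p = 0.0288), and the seryl-tRNA synthetase gene Sars from 9.59 and 9.74 to 10.18 and 10.09 (0.47 ± 0.13, adjusted p = 0.0390). Iars, the isoleucyl-tRNA synthetase gene, was next, with 9.98 and 10.26 against 10.67 and 10.46 (0.45 ± 0.14, adjusted p = 0.0660), and its other probe set gave the same order of groups. Of the 15 synthetases 14 lay above 0, with a median of 0.29, and in 10 the groups did not overlap. Over all genes 44.9% lay above 0 and 23.8% did not overlap upwards, and among those at or above the median level these shares were 63.9% and 38.9%, with a median of 0.088. The exception was Wars, at -0.0093 ± 0.14. The calls of Nars (adjusted p from 0.0958 to 0.134) and Sars (from 0.125 to 0.157) both ended without wild-type Th1 replicate 1, without wild-type Th17 replicate 1 and without wild-type Th17 replicate 2, which left 1 gene called higher. Sars was also not called without either Tet2-deficient Th17 array, in a fit on the wild-type arrays alone or with the female share as a covariate, and both calls ended with a replicate block, when all probe sets were tested and after a further quantile normalization, where Nars had an adjusted p of 0.0516.

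Among the other genes, Sesn2, a stress-induced inhibitor of mTORC1, had 8.57 and 8.31 in wild-type Th1 against 7.84 and 8.19 in wild-type Th17 cells (-0.43 ± 0.16, adjusted p = 0.125). Ppp1r15a, the eIF2 phosphatase subunit GADD34, had -0.30 and Atf5, a related transcription factor, had -0.30, with no overlap. Ddit3 had 0.34 ± 0.17. Atf4 (0.0010 ± 0.13), Asns (-0.096 ± 0.19), Chac1 (0.048 ± 0.17) and Trib3 (0.084 ± 0.13) had differences smaller than their standard errors. The 95% interval of Atf4 ran from -0.29 to 0.29. Over the 38 genes the median was 0.10 with 27 above 0, close to the 0.088 of genes at or above the median level, and it was 0.064 without wild-type Th1 replicate 1.

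**Figure D4:**
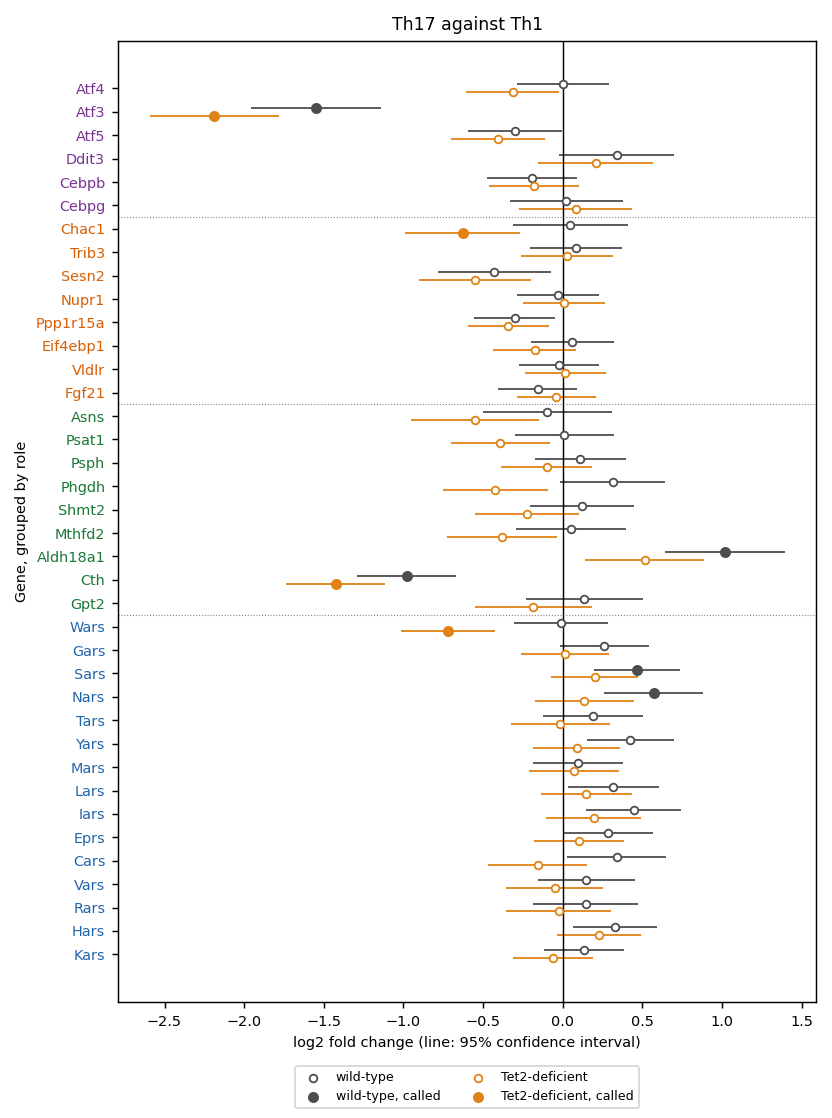
Log2 fold change of Th17 against Th1 cells for each of the 38 genes in wild-type (grey) and Tet2-deficient cells (orange), with 95% confidence intervals from limma and 2 arrays in each group; filled points were called at an adjusted p under 0.05. Atf3 and Cth were called lower in both genotypes, Aldh18a1, Nars and Sars higher in wild-type cells, and Wars and Chac1 lower in Tet2-deficient cells.

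In Tet2-deficient cells, 4 of the 38 genes fell in Th17 against Th1 cells, Atf3, Cth, Wars and Chac1, and none rose. The share called lower was 10.5% against 3.79% of all genes, and the share called higher was 0% against 6.32%. At an unadjusted p under 0.05 limma found 1 of the 38 higher, Aldh18a1, a smaller share than the 13.1% of all genes. It found 12 of the 38 lower, a larger share than the 11.6% of all genes. Of 9969 genes at or above the median level, 2290 were higher and 954 lower at this threshold. This comparison uses the same Tet2-deficient arrays as the comparisons of genotypes above, so its values are not independent of them.

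Atf3 fell 4.55-fold, from 9.77 and 9.85 to 7.99 and 7.27 (-2.19 ± 0.19, n = 2 and 2, adjusted p = 1.71e-05, limma), and Cth fell 2.68-fold, from 8.28 and 8.37 to 6.74 and 7.06 (-1.42 ± 0.14, adjusted p = 5.6e-05). Wars fell 1.65-fold, from 10.11 and 10.003 to 9.44 and 9.22 (-0.72 ± 0.14, adjusted p = 0.00503). Chac1 fell 1.55-fold, from 7.13 and 7.75 to 6.90 and 6.72 (-0.63 ± 0.17, adjusted p = 0.0325). Chac1 was the least firm of the 4. Leaving out Tet2-deficient Th1 replicate 2 ended its call (-0.32, adjusted p = 0.230). Leaving out either Tet2-deficient Th17 array did so too, at -0.72 (adjusted p = 0.0943) for replicate 1 and -0.54 (adjusted p = 0.180) for replicate 2. Wars was lost when that replicate 2 was left out (-0.61, adjusted p = 0.0659). With the female share as a covariate Wars was at -0.67 (adjusted p = 0.0923) and Chac1 at -0.53 (adjusted p = 0.264). Chac1 was also not called in a fit on the Tet2-deficient arrays alone (adjusted p = 0.0535) or when all probe sets were tested (adjusted p = 0.15), at the same fold change. That Wars and Chac1 passed only in Tet2-deficient cells does not show that the genotypes differ, since the test of that difference called neither.

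The next largest differences did not pass. Asns had 11.03 and 11.04 in Tet2-deficient Th1 against 10.71 and 10.25 in Tet2-deficient Th17 cells (-0.55 ± 0.19, adjusted p = 0.0817), Sesn2 8.66 and 8.32 against 8.05 and 7.84 (-0.55 ± 0.16, adjusted p = 0.0510) and Aldh18a1 8.79 and 9.26 against 9.71 and 9.37 (0.51 ± 0.17, adjusted p = 0.0812). Sesn2 did pass under several alternatives, such as the fit on these arrays alone (adjusted p = 0.0355), the filter on low levels (adjusted p = 0.0317) and quantile normalization (adjusted p = 0.0197). Asns passed in the fit on these arrays alone (adjusted p = 0.0431) and after quantile normalization (adjusted p = 0.0488), but was at -0.21 with the female share as a covariate and at -0.32 without Tet2-deficient Th17 replicate 2. Of the 9 synthesis enzymes 8 lay below 0, with a median of -0.38, and Aldh18a1 was the exception. Of the 15 synthetases 9 lay above 0, with a median of 0.069, near the 0.075 of genes at or above the median level. Atf4 had -0.31 ± 0.13 (adjusted p = 0.168), with no overlap between the groups, and passed after quantile normalization (-0.45, adjusted p = 0.0400). The median of the 38 genes was -0.055, -0.13 without Tet2-deficient Th1 replicate 1, -0.0058 without its replicate 2 and -0.090 without Tet2-deficient Th17 replicate 1.

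**Figure D5:**
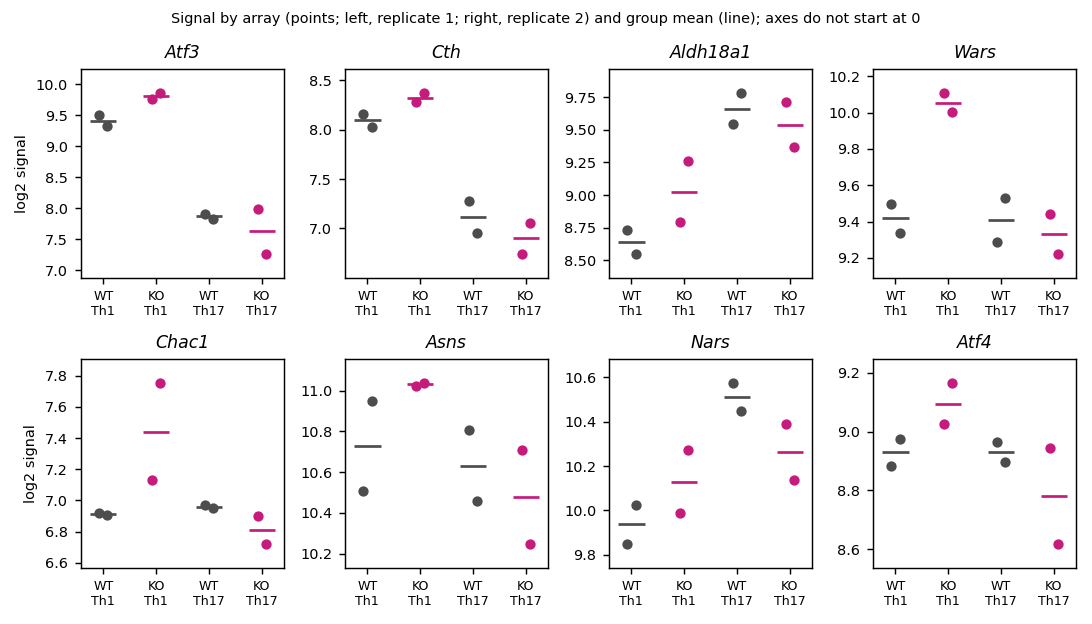
Log2 signal of 8 genes on each array (points, replicate 1 left and replicate 2 right) with the group mean (line), for wild-type (WT, grey) and Tet2-deficient (KO, pink) Th1 and Th17 cells; the axes do not start at 0 and differ between genes. Atf3 and Cth separate the subsets in both genotypes, whereas the arrays of Wars separate only Tet2-deficient Th1 cells, at 10.11 and 10.003, from the rest.

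Related genes outside the set were read for comparison, from the lists named in each case. Of 18 other ATF4-linked genes, such as amino acid transporters, 0 were called between genotypes by limma, where 13 lay above 0 in Th1 cells (median 0.19) and 12 below 0 in Th17 cells (median -0.10). The largest was the glutamine transporter gene Slc1a5, at 0.70 ± 0.20 in Th1 cells (adjusted p = 0.797). Between subsets, Ddit4, an inhibitor of mTORC1, rose in Th17 cells of wild-type (0.47 ± 0.12, adjusted p = 0.0296) and Tet2-deficient mice (0.70 ± 0.12, adjusted p = 0.00254). Stc2, a secreted glycoprotein gene, fell in Tet2-deficient cells (-0.77 ± 0.13, adjusted p = 0.00254). Each of these calls was 5.56% of the 18 genes. Of all genes 4.97% were called higher in wild-type cells, and 6.32% higher and 3.79% lower in Tet2-deficient cells, so these shares were near those of all genes. Limma called 0 of 16 mitochondrial synthetases between genotypes, with medians of 0.075 in Th1 and -0.048 in Th17 cells. In wild-type cells 14 of these 16 lay above 0 in Th17 against Th1 cells, with a median of 0.18. Limma called 0 of them there, where 4.97% of all genes were called higher and 3.44% lower. Of all genes 44.9% lay above 0, and of those at or above the median level 63.9%, with a median of 0.088. In Tet2-deficient cells Nars2 (0.57 ± 0.16, adjusted p = 0.0368) and Rars2 (0.54 ± 0.12, adjusted p = 0.0124) rose, or 12.5% of the 16. There 6.32% of all genes and 11.2% of those at or above the median level were called higher. Of the 6 other cytosolic synthetases and scaffold proteins 0 were called in any comparison. Between subsets 3.44% to 6.32% of all genes were called in each direction. The medians of these 6 were 0.12 and -0.13 between genotypes in Th1 and Th17 cells. Of 9 serine, glycine and folate genes outside the set 1 was called, the glycine cleavage gene Gldc, which fell in Tet2-deficient Th17 against Th1 cells (-0.54 ± 0.12, adjusted p = 0.0165), where 3.79% of all genes were called lower. The signal of Gldc was low, at 5.34 to 6.03, as was that of the myeloid marker Itgam, at 5.58 to 5.94.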

How the data were processed

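The authors deposited log2 probe-set signals of 35556 probe sets on 8 arrays, made, per the submitters' processing notes, with RMA, GCOS and Affymetrix Expression Console. Versions and options are not given in the sources used here. RMA normalizes arrays to one another, which can hide a shift shared by most genes, so no further scaling was applied. Precision is set by how few arrays there are, as array signals carry no read depth. Probe sets were named from the platform annotation of 2016. Those with more than one symbol (1621) or none (12146) were left out. The probe set with the highest mean was kept per gene, which left 19938 genes, without a filter on low signal.

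The test was limma 3.58.1, run in R 4.3.3 on 4 group means, with eBayes and an intensity trend (4 residual and 8.32 prior degrees of freedom). Tests were two-sided and adjusted by Benjamini-Hochberg over all genes, and an adjusted p under 0.05 was called. Values after ± are standard errors. The p-values measure only the spread between the arrays. The method was tested on simulated data with independent normal noise and changes planted in Tet2-deficient Th1 cells. Changes smaller than the planted ones, like most genotype differences described here, were not covered by it. The genes, the lists and the rule for named genes (7 fixed genes, the 6 largest differences in each comparison and up to 4 of each related list) were chosen with earlier results of these data known, and Ppp1r15a, Atf5, Fgf21 and Sesn2 were named after their values were seen. Promoter windows were RefSeq's, in GRCm38.p6. A check of same-numbered arrays gave correlations of their deviations from -0.19 to 0.06. These gave no sign that the numbers pair the arrays, but they cannot exclude pairing. Alternatives were a replicate block, a fit on the arrays compared, a filter on low levels, the mean of probe sets, all probe sets, quantile normalization again, centring, no trend, the female share and each array left out.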

Additional observations from a re-analysis of the deposited data

Results flagged for a closer look

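Set against the wild-type mean of its subset, each Tet2-deficient array gave a median difference over the 38 genes. It was 0.10 and 0.24 on Th1 replicates 1 and 2, and -0.0059 and -0.14 on Th17 replicates 1 and 2, so both Th1 arrays lay above 0 and both Th17 arrays below it. This difference between the subsets was not tested for the median, and limma's test for single genes called none of the 38. The value of Th17 replicate 1 was close to 0, and the wild-type Th1 arrays had medians of -0.11 and -0.046 around each gene's mean over all arrays, where all genes at or above the median level had -0.082 and -0.023.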

How the results depend on the processing

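With 2 arrays a group, small differences could not be called, and between genotypes limma called none of the 38 genes under any alternative. Leaving out one array at a time moved the median of the 38 genes between 0.10 and 0.24 in Th1 cells, -0.14 and -0.0059 in Th17 cells, -0.33 and -0.18 for the difference, 0.064 and 0.13 between wild-type subsets and -0.13 and -0.0058 between Tet2-deficient subsets. It left 1 to 5 genes called higher between wild-type subsets, and 2 to 5 lower and 0 to 1 higher between Tet2-deficient subsets. Of 3 genes called higher between wild-type subsets, a replicate block left 1, a further quantile normalization 1 and testing all probe sets 0, while genes at or above the median level gave 5 and centred arrays 5. The replicate block left the 2 lower calls there and the 4 calls between Tet2-deficient subsets. The check above gave no sign that the numbers pair the arrays, but it cannot exclude pairing. Crossing the wild-type Th17 numbers, an alternative chosen after seeing the data because the correlation there was -0.19, gave 3 higher and 3 lower. Of 4 genes called lower between Tet2-deficient subsets, a fit on those arrays alone gave 7, of which 3 were among the 4 (Chac1 was lost), quantile normalization 8 and the female share 2. The wild-type median was 0.013 after quantile normalization and 0.14 after centring, and the Tet2-deficient one -0.15 and -0.0080.

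Some values changed sign, and the cause was not tested. With the female share as a covariate, Atf3 was 0.014 and Asns 0.059 between genotypes in Th17 cells, Trib3 0.033 in the difference, and Asns 0.032 and Wars 0.011 between wild-type subsets. After quantile normalization Trib3 was -0.0067 between genotypes in Th17 cells and -0.0095 between Tet2-deficient subsets, and Atf4 -0.14 between wild-type subsets, where centring put Wars at 0.026. With one array left out, Th1 values ran from -0.19 to 0.32 for Ddit3 and -0.085 to 0.23 for Trib3. Th17 values ran from -0.60 to 0.12 for Atf3, -0.31 to 0.014 for Atf4, -0.22 to 0.088 for Ddit3, -0.38 to 0.076 for Asns, -0.099 to 0.13 for Trib3 and -0.19 to 0.043 for Wars. The difference ran from -0.38 to 0.12 for Ddit3 and -0.21 to 0.100 for Trib3. Between wild-type subsets Atf4 ran from -0.045 to 0.047, Asns from -0.31 to 0.12 and Wars from -0.13 to 0.11, and between Tet2-deficient subsets Trib3 from -0.13 to 0.18. The fit on the arrays compared was not run for the difference, which needs all groups.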

Other observations

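The other arms of the unfolded protein response, which act through ATF6 and XBP1 rather than ATF4, were read on 20 genes. In wild-type cells limma called 4 of them higher in Th17 than in Th1 cells and 0 lower, where 4.97% and 3.44% of all genes were called. They were the disulfide isomerase gene Pdia4 (0.79 ± 0.14, adjusted p = 0.00527), the sensor Atf6 (0.75 ± 0.12, adjusted p = 0.00174), the chaperone cofactor Dnajb9 (0.62 ± 0.14, adjusted p = 0.0189) and the sensor Ern1 (0.55 ± 0.14, adjusted p = 0.0345). All 20 genes lay at or above the median level, where 8.98% were called higher and 3.47% lower in wild-type cells. In those cells 14 of the 20 lay above 0, with a median of 0.13, against 63.9% and 0.088 at that level. The 6 below 0 included Edem1, with 10.03 and 10.15 on the Th1 and 9.51 and 9.77 on the Th17 arrays. Others were Hspa5 (11.27 and 11.60 against 11.32 and 11.22), Calr (10.79 and 10.98 against 10.74 and 10.76) and Pdia3 (11.01 and 11.35 against 11.20 and 10.85). In Tet2-deficient cells 5 were called higher, among them Atf6 (1.04 ± 0.12, adjusted p = 0.000128) and Pdia4 (0.71 ± 0.14, adjusted p = 0.00817). There 6.32% of all genes and 11.2% of those at or above the median level were called higher. Between genotypes limma called 0 of the 20, with medians of 0.037 in Th1 and -0.030 in Th17 cells.

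Of 11 genes for eIF2, its kinases and its exchange factor, 1 was called between subsets, or 9.09%, where 3.44% of all genes were called lower in wild-type and 3.79% in Tet2-deficient cells. Eif2ak2, the interferon-induced kinase PKR, fell in Th17 against Th1 cells of both genotypes, by 0.97 on the log2 scale in wild-type (SE 0.13, adjusted p = 0.000567, limma) and by 0.47 in Tet2-deficient cells (SE 0.13, adjusted p = 0.0371). Its genotype effects were -0.20 ± 0.13 in Th1 and 0.31 ± 0.13 in Th17 cells, and their difference, 0.50 ± 0.18, did not pass (adjusted p = 0.999).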
